A study of Mus musculus with 5 samples.

Results

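Histones package DNA into nucleosomes, and besides the canonical histones, which are made in bulk when a cell copies its DNA, cells make variant histones throughout their life. OSNs, the olfactory sensory neurons, have left the cell cycle, and in such cells variants can replace the canonical histones over time. The mRNAs of 10 histone genes were examined in sorted mouse OSNs: the H2B genes *Hist2h2be* and *Hist1h2bc*, the linker histone genes *Hist1h1c* and *H1f0*, the H2A variant genes *H2afz*, *H2afv*, *H2afy* and *H2afx*, and the H3.3 genes *H3f3a* and *H3f3b*. They were chosen by name, as the rows whose Ensembl identifiers map to these symbols, and they are 10 of the 55411 genes in the count tables. *Hist2h2be* encodes H2BE, an H2B variant of OSNs whose abundance is known to be high in neurons that are rarely active and low in neurons that are often active.

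The libraries were made by FACS-seq, that is, bulk RNA-seq of neurons sorted by fluorescence. All mice were male, 7 weeks old and homozygous for Olfr151tm26Mom (Olfr151GFP/GFP), a knockin that adds an IRES-tau-GFP reporter to the gene of the acetophenone receptor *Olfr151*, so that every neuron which transcribes this receptor gene is fluorescent. The mice were exposed for 5 h to 5% acetophenone in DMSO (exposed pools) or to DMSO alone (control pools). Live, nucleated GFP-positive cells from 4 mice made 1 pool and 1 library. Control pools 1, 2 and 3 and exposed pools 1 and 3 were used, and exposed pool 2 was not analysed here. Per pool, 200 cells were sorted by the methods and by one field of the sample descriptions, while another field gives 400, the number that the methods state for an *Olfr16* line. Library totals lay between 42780403 and 49527380 counts, so that 3 counts, the limit that a count of 0 allows, were 0.0606 to 0.0701 CPM (counts scaled to the library total). The reads carry no molecular identifiers, and such limits cover counting error only. In bulk pools, fewer cells of a type and less RNA per cell cannot be told apart.

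The canonical histone mRNAs end in a stem-loop and carry no poly(A) tail, whereas replication-independent histone mRNAs are polyadenylated like other mRNAs. The cDNA of these libraries was primed on poly(A), so the end of each transcript bears on what could be counted. In the GENCODE M21 transcripts (GRCm38), the poly(A) signal AATAAA was searched on the sense strand after the stop codon and found for 8 of the 10 members, the exceptions being *H2afy* and *H2afx*. It was found for 79.3% of 21526 coding genes and for 16 of 64 other genes of the histone clusters (25%). For 5 members the signal lay within the last 30 bases of the longest coding transcript. These ends are shown 5′ to 3′ down to the last annotated base, with the signal in capitals, because they are the sites next to which the cDNA primer could anneal.
Hist2h2be, chr3:96223717-96223738, plus strand: AATAAAgttaccgattagtttc
Hist1h1c, chr13:23740342-23740367, plus strand: AATAAAaagcgtttagttttcattca
H1f0, chr15:79030483-79030504, plus strand: AATAAAactggaaaggaaaaaa
H2afv, chr11:6427229-6427257, minus strand: AATAAAgaaactagcactagtgtgacaaa
H3f3a, chr1:180800832-180800853, minus strand: AATAAAagtaccaatagaagaa
Between the signal and the end stood 16 bases in *Hist2h2be*, *H1f0* and *H3f3a*, 20 in *Hist1h1c* and 23 in *H2afv*. The *Hist2h2be* transcript carried 2192 bases after its stop codon, against a median of 93 for the other histone cluster genes and 916 for all coding genes.

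The 16-base consensus of the histone stem-loop was searched in the same stretches, also on the sense strand. It was found for 45 of the 64 other histone cluster genes (70.3%), for 0.567% of all coding genes and for 2 of the 10 members, *Hist1h1c* and *H2afx*. Both are shown because the stem-loop is where canonical histone mRNAs end, with the paired bases of the stem in capitals and the loop in lower case.
Hist1h1c, chr13:23739512-23739527, plus strand: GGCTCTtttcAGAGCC
H2afx, chr9:44335240-44335255, plus strand: GGCCCTtttaAGGGCC
The stem-loop of *Hist1h1c* began 25 bases after the stop codon and was followed by 840 further bases of transcript, at the end of which stands the AATAAA shown above. The stem-loop of *H2afx* began 47 bases after the stop codon and was followed by 822 bases without AATAAA. The counts, summed over all exons, do not separate transcripts that end at the stem-loop from longer ones. The absence of the stem-loop consensus from *Hist2h2be* and the other members says only that these letters are not in the stretches searched.

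How far the reads could tell the members from their relatives and from other genes was also examined, because reads that map to several places were not counted. *Hist2h2be* and *Hist1h2bc* both encode 126 amino acids and differ at 5 of them, with 50 differing bases among 381 of the coding sequence. *H3f3a* and *H3f3b* encode the same protein of 136 amino acids from coding sequences that differ at 95 of 411 bases. *H2afz* and *H2afv*, which encode the H2A.Z proteins, differ at 3 of 128 amino acids and at 81 of 387 bases. Of all 50-base windows, the length of a read, none of the 2571 in *Hist2h2be* and none in *H2afv* occurred in a transcript of another gene, on either strand. The share was 35.4% for *H2afz*, 30.6% for *Hist1h2bc* and 27.1% for *H3f3a*, and between 5.68% and 9.66% for the other 5 members. The windows shared by *H1f0* and *H2afy* occurred only in *Gm49544* and *Gm47071*, which overlap these genes on the opposite strand. They mark a single place in the genome and not reads that map to several places. The levels of *H2afz*, *Hist1h2bc* and *H3f3a* are therefore the least certain. Reads were counted without strand, and exons of 4 members overlap a gene on the opposite strand by 141 to 501 bases. The partners of *H1f0*, *H2afy* and *H2afx* had at most 78 counts in any library, and the partner of *H3f3a*, *H3f3aos*, had 120 to 436.

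The label of the cells was checked with marker genes. The 11 markers of mature OSNs summed to 53420 to 66960 CPM in each library, whereas 7 progenitor markers summed to 0.418 to 8.55 CPM. A list of 16 markers of cycling cells summed to 68.2 to 89.7 CPM. Of these, 5 had enough counts to be tested between conditions and 0 were called. The proliferation marker *Mki67*, which is on that list, had between 0 and 10 counts. Sustentacular cell markers (8 genes) summed to 106 to 357 CPM. Control pool 1 and exposed pool 1 stood apart in 10 markers of myeloid cells, which summed to 377 and 405 CPM in these libraries, against 31.4 and 20.0 CPM in control pools 2 and 3 and 49.7 CPM in exposed pool 3. The sums were carried mainly by *Cd74* (230 and 277 CPM) and *Lyz2* (63.3 and 58.2 CPM). Of the 10 markers, 6 were higher in both of these libraries than in the other 3, and *Cx3cr1*, *C1qc*, *Tyrobp* and *Ptprc* were not. In control pools 2 and 3, *Csf1r* had 0 counts, against 866 in control pool 1, 788 in exposed pool 1 and 66 in exposed pool 3. None of the 5 sustentacular and 4 myeloid markers that could be tested was called between conditions by the edgeR test described next, in which 0 and 1 of them had an unadjusted p under 0.05, whereas the DESeq2 Wald test called 0 and 1. The latter is *Ptprc*, with 0, 54 and 1 counts in control pools against 542 and 517 in exposed pools.

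Between conditions, 10062 genes were tested with edgeR's quasi-likelihood test. A gene was called at a Benjamini-Hochberg adjusted p under 0.1 with a log2 fold change beyond 0.5. With these criteria 344 genes (3.42%) were called higher and 186 (1.85%) lower in the exposed pools. Of 8 genes known to follow activity, 6 had enough counts to be tested. Among these, 4 were called higher, with log2 fold changes of 4.37 for *Nr4a1*, 2.17 for *S100a5*, 1.65 for *Junb* and 1.49 for *Egr1*. Of 17 alternative analyses, 1 lost the call of *Nr4a1*, 2 that of *S100a5*, 9 that of *Junb* and 7 that of *Egr1*. *Fos* (0.90) and *Fosb* (1.57) were not called, with adjusted p-values of 0.109 and 0.129 in the same edgeR test.

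All 10 members were expressed and none was called in either direction, beside 3.42% of all tested genes called higher and 1.85% called lower. All passed the filter, which asks for 139 counts throughout at least 1 of the conditions, with the lowest count, 385, for *H2afz*. None had an unadjusted p under 0.05 either, a level that 1924 tested genes (19.1%) reached in that edgeR test, and the DESeq2 Wald test called 0 of the 10 as well. The fitted log2 fold change was negative for 8 of the 10, or for 9 with spike-in scaling, which also turned *H2afx* negative. It was negative for 52.1% of all tested genes, or for 67.4% with spike-in scaling. The median over the members was -0.19, with a range from -0.38 to 0.28, beside a median of -0.03 over all tested genes. In CPM scaled by TMM factors (the trimmed mean of M-values, used below for all comparisons between libraries), both exposed pools lay below all 3 control pools for 2 members, *H1f0* and *H2afy* (19.6% of all tested genes), and above them for none (20.3%). Non-overlap of the conditions in either direction was found for 39.9% of all tested genes.

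**Figure D1:**
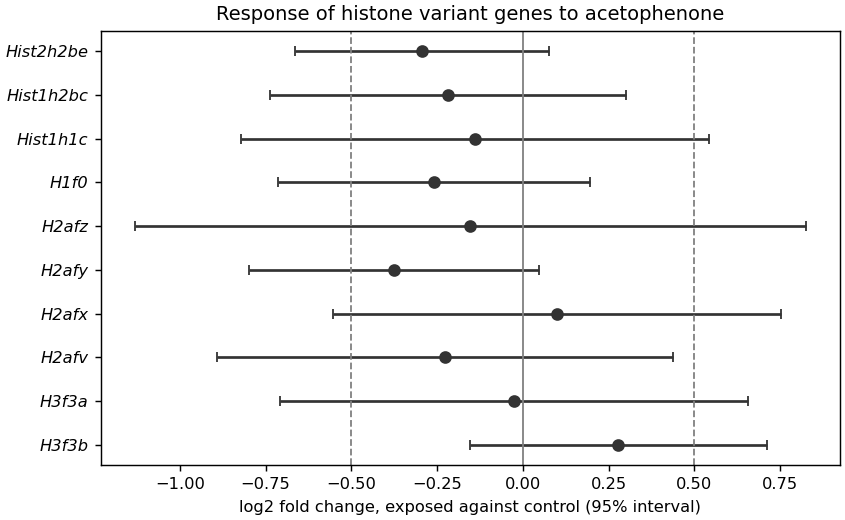
Log2 fold change of the 10 histone genes, exposed (n = 2 pools) against control (n = 3), from the edgeR fit on 10062 genes. Points are estimates, bars are 95% confidence intervals, and dashed lines mark the size of 0.5 required for a call. Every interval includes 0, and 8 of the 10 estimates lie below it.

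Levels were compared between genes per length, in TPM (length-scaled transcript abundance), in which each count is divided by the deposited exon length of its gene and then by the sum of these ratios in the library. *H3f3b* was the most abundant member, with 963 TPM ± 124 (SD, n = 3) in the control pools, rank 105 of 55412 annotated genes, the reporter included. *Hist2h2be* followed with 521 TPM ± 42.6, rank 240. The next were *Hist1h2bc* (287 TPM ± 34.3), *H2afy* (246 TPM ± 19.5) and *H1f0* (182 TPM ± 24.9), and then *H2afv* (91.0 TPM ± 14.8), *H2afx* (83.5 TPM ± 11.3) and *Hist1h1c* (66.7 TPM ± 5.88). The lowest were *H3f3a* (43.6 TPM ± 6.27) and *H2afz* (24.8 TPM ± 4.61), rank 5125. Adjacent members whose ranges over the 5 libraries did not overlap were *H3f3b* and *Hist2h2be* (a ratio of control means of 1.85), *Hist2h2be* and *Hist1h2bc* (1.81), *H1f0* and *H2afv* (2.00), *H2afx* and *Hist1h1c* (1.25), and *H3f3a* and *H2afz* (1.76). *H2afy* exceeded *H1f0*, and *Hist1h1c* exceeded *H3f3a*, in 5 of 5 libraries although their ranges overlapped. *Hist1h2bc* and *H2afy*, and *H2afv* and *H2afx*, did not differ beyond their spread, the first of each pair being higher in 3 and 2 of 5 libraries, respectively. The exon length used for *H2afy*, 6809 bases, covers 8 annotated transcripts, and its longest coding transcript has 2046 bases, so its TPM is a low estimate per molecule.

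**Figure D2:**
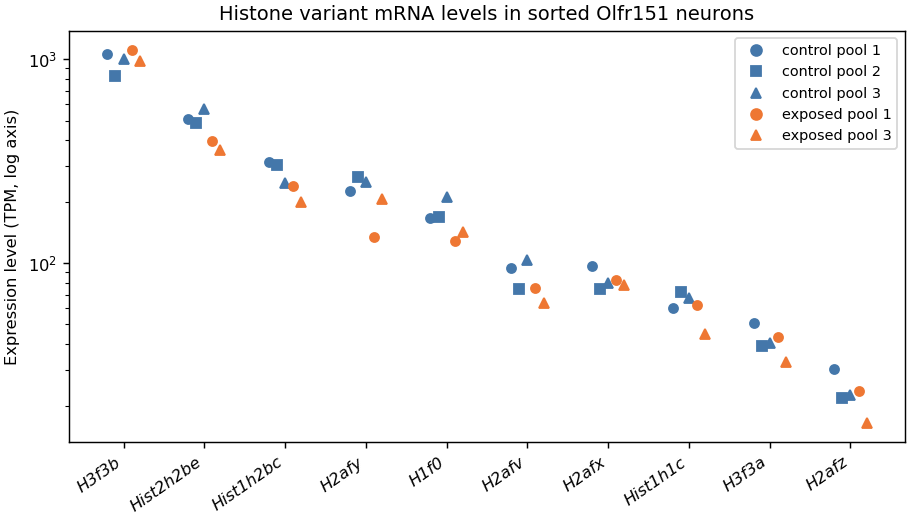
Level of each histone gene in TPM (log axis) in every library, ordered by the control mean, with control pools in blue and exposed pools in orange. *H3f3b* lies between 824 and 1109 TPM and *H2afz* between 16.4 and 30.1 TPM.

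*Hist2h2be* (ENSMUSG00000068854, chr3:96221119-96223738, plus strand, 1 annotated transcript of 2620 bases) collected 18038, 17282 and 19825 reads from control pools 1, 2 and 3, against 15061 and 12467 from exposed pools 1 and 3. In TMM-scaled CPM these were 419, 353 and 433 in the control pools, and 355 and 301 in the exposed pools. Exposed pool 3 was the lowest library, while exposed pool 1 lay just above control pool 2, so the conditions overlapped. The mean was 402 CPM ± 42.5 (SD, n = 3) in control and 328 CPM ± 37.8 (n = 2) in exposed pools, or 81.6% of the control level. The log2 fold change was -0.29 (SE 0.16), with an adjusted p of 0.359 in edgeR's quasi-likelihood test. The 95% interval of the fold change ran from 0.631 to 1.06 and thus includes an equal level.

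Whether the conditions overlapped for *Hist2h2be* depended on the scale. In CPM of the library total the exposed pools, at 347 and 292, lay below the lowest control pool at 350. In TPM they stood at 398 and 359 against 485 to 568, which is 72.7% of the control mean. *S100a5*, an activity-dependent gene with a short transcript, took 2.40% to 3.81% of all TPM in control pools and 13.9% and 12.2% in exposed pools, which lowers the TPM of other genes. With *S100a5* left out of the total, *Hist2h2be* stood at 80.9% of the control level, and again the conditions did not overlap. Per count of the ERCC spike-in RNAs it stood at 70.4%, with overlapping conditions. Both exposed pools lay below all controls for 3 members in CPM of the library total (21.3% of all tested genes), for 4 in TPM (28.1%), for 2 in TPM without *S100a5* (19.6%) and for 0 per spike-in count (7.71%). They lay above all controls for 1 member, *H3f3b*, in TPM without *S100a5* (19.1% of all tested genes).

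*Hist1h2bc* encodes a canonical H2B type and belongs to the large histone cluster (chr13:23684199-23692908, plus strand). It had 113, 97.1 and 83.5 CPM in control and 94.1 and 74.1 CPM in exposed pools. The conditions overlapped, and the log2 fold change was -0.22 (SE 0.22, adjusted p = 0.638 in edgeR). Among the 19 H2B genes of the histone clusters, *Hist2h2be* contributed 56.3%, 54.2% and 63.7% of the TPM in control pools and 57.2% and 54.4% in exposed pools. *Hist1h2bc* contributed 27.8% to 34.4%. Of its 50-base windows, 30.6% occur in transcripts of other genes, against none of *Hist2h2be*, and H2B mRNAs without a poly(A) tail are not primed. The share of *Hist2h2be* is thus one of the counted mRNA and may be too high. The share of *Hist2h2be*, 58.0% ± 4.98 in control and 55.8% ± 2.03 in exposed pools, differed by -2.24 percentage points, which is smaller than the SD of the control pools.

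The linker histones bind the DNA between nucleosomes. *H1f0* (chr15:79028450-79030504, plus strand), which encodes the linker histone of cells that no longer divide, had 107, 96.4 and 126 CPM in control and 90.0 and 93.7 CPM in exposed pools. Both exposed pools lay below the lowest control pool, and the log2 fold change was -0.26 (SE 0.19, 95% interval -0.71 to 0.20, adjusted p = 0.513 in edgeR). *Hist1h1c* (chr13:23738808-23740367, plus strand), which encodes H1.2, had 29.6, 31.3 and 30.7 CPM in control pools, a coefficient of variation of 2.88%. The exposed pools stood on either side of these, at 33.1 CPM in pool 1 and 22.3 CPM in pool 3. Its log2 fold change was -0.14 (SE 0.29) and became 0.093 without exposed pool 3. Of the TPM of 8 linker histone genes, *H1f0* made up 67.4% ± 3.72 in control and 67.1% ± 5.05 in exposed pools, and *Hist1h1c* 24.9% ± 2.92 and 26.5% ± 6.13.

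Among the H2A variants, *H2afy* (chr13:56073619-56136361, minus strand) encodes macroH2A1, an H2A with a large additional domain that is known from silenced chromatin. It had 480, 498 and 497 CPM in control pools and 310 and 447 CPM in exposed pools. The control pools were close together, with a coefficient of variation of 2.11%, and both exposed pools lay below them, exposed pool 1 further than exposed pool 3. The exposed mean was 77.1% of the control mean, the lowest among the members, with a log2 fold change of -0.38 (SE 0.18, 95% interval -0.80 to 0.05, adjusted p = 0.309 in edgeR). The size rested largely on exposed pool 1: the log2 fold change was -0.69 without exposed pool 3 and -0.15 without exposed pool 1, and the gene was not called in either case. Together with *H2afy2*, the gene of macroH2A2, *H2afy* made up 66.3% to 70.3% of the TPM in control pools, 60.0% in exposed pool 1 and 71.7% in exposed pool 3.

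*H2afz* and *H2afv* encode the H2A.Z proteins, which sit in nucleosomes at promoters and other regulatory regions. *H2afz* had 16.8, 10.8 and 11.6 CPM in control and 14.2 and 9.30 CPM in exposed pools, with a log2 fold change of -0.15 (SE 0.41). Its interval, from -1.13 to 0.83, was the widest among the members. *H2afv* had 48.2, 34.1 and 49.4 CPM in control and 41.6 and 33.4 CPM in exposed pools, with a log2 fold change of -0.23 (SE 0.28). Both overlapped between conditions. *H2afv* supplied 75.8% to 82.2% of the H2A.Z TPM in every library. Of the 50-base windows of *H2afz*, however, 35.4% occur in other transcripts, against none of *H2afv*. In addition, *H2afz* was scaled by 1776 exon bases, while its longest coding transcript has 1069. Both can lower the TPM of *H2afz*, so the share of *H2afv* may be too high. *H2afx* encodes H2A.X, the variant that is phosphorylated at DNA breaks. Its levels of 41.8, 28.8 and 32.0 CPM in control and 38.6 and 34.6 CPM in exposed pools overlapped, with a log2 fold change of 0.10 (SE 0.28).

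H3.3 is deposited throughout the cell cycle at transcribed genes and regulatory elements, and both of its genes encode the same protein. *H3f3b* (chr11:116021912-116027962, minus strand) had 992, 682 and 867 CPM in control and 1122 and 934 CPM in exposed pools. Exposed pool 1 was the highest library, and exposed pool 3 lay between control pools 1 and 3. The log2 fold change was 0.28 (SE 0.18, 95% interval -0.15 to 0.71, adjusted p = 0.457 in edgeR), the highest among the members. *H3f3a* (chr1:180800832-180813943, minus strand) had 55.8, 38.3 and 41.4 CPM in control and 51.9 and 36.9 CPM in exposed pools, with a log2 fold change of -0.03 (SE 0.29). *H3f3b* supplied nearly all H3.3 mRNA, 95.4%, 95.4% and 96.1% of the TPM of the pair in control pools and 96.2% and 96.8% in exposed pools. The share was higher in both exposed pools than in all control pools, by 0.83 percentage points on average. A two-sided exact permutation test gave p = 0.2, the smallest that 3 against 2 pools allow, and an adjusted p of 1 over the 7 shares examined here. Of the 50-base windows, 27.1% of *H3f3a* and 6.86% of *H3f3b* occur in other transcripts, and reads that map to several places were not counted. The windows of *H3f3a* can include part of the 160 bases shared with *H3f3aos* on the opposite strand. Such windows mark a single place, so 27.1% need not all be lost.

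**Figure D3:**
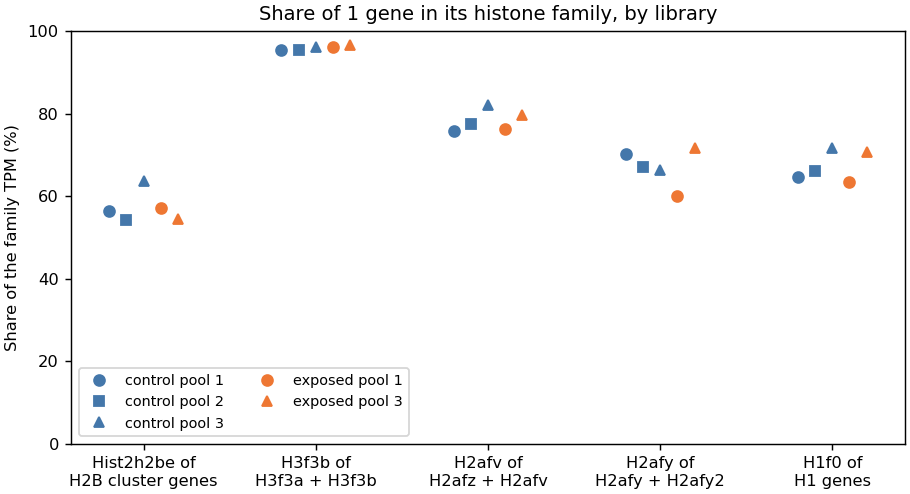
Share of 1 gene in the summed TPM of its histone family, in percent, in each library (blue, control; orange, exposed). *H3f3b* makes up 95.4% to 96.8% of the H3.3 mRNA in every library, and the shares of the other 4 genes overlap between conditions.

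A different grouping of the libraries, noticed in the values themselves, appeared in 4 members. *H2afx*, *H2afz*, *H3f3a* and *H3f3b* were higher in control pool 1 and exposed pool 1 than in the other 3 libraries, that is, 4 of 10 members, against 10.35% of all tested genes. These are the libraries in which the myeloid markers summed to 377 and 405 CPM, against at most 49.7 CPM elsewhere. They also had the highest shares of spike-in counts (0.631% and 0.542%, against 0.249% to 0.332%) and of mitochondrial counts (1.18% and 1.07%, against 0.707% to 0.923%) and the highest sums of sustentacular markers (357 and 315 CPM, against 106 to 275 CPM). The part of these differences in the levels of the histone genes was not tested. With both libraries left out, the log2 fold changes were 0.18 for *H2afx*, -0.27 for *H2afz*, -0.12 for *H3f3a* and 0.27 for *H3f3b*. *Hist2h2be*, *H1f0* and *H2afy* then had -0.39, -0.25 and -0.16, and no member was called.

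**Figure D4:**
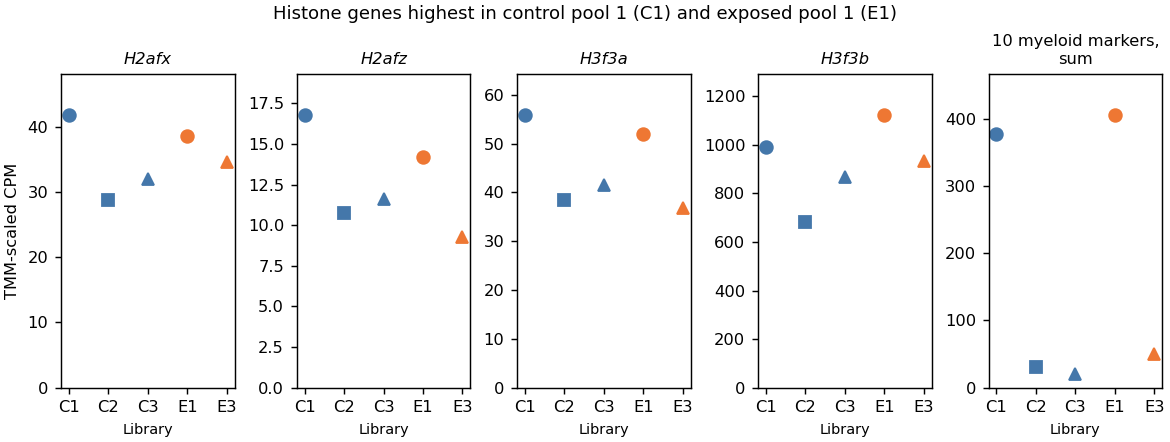
Level in TMM-scaled CPM of 4 histone genes and of the sum of 10 myeloid markers in control pools 1 to 3 (C1 to C3) and exposed pools 1 and 3 (E1, E3). In each panel C1 and E1 are the highest libraries, and the myeloid markers reach 377 and 405 CPM there.

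The tested genes whose pattern over the 5 libraries was most like that of *Hist2h2be* were *Ubr7*, *Etfrf1*, *Mrps36*, *Guk1* and *Lipa*. Their root-mean-square distance to *Hist2h2be*, on log2 CPM centred on each gene's mean, was 0.033 to 0.042, against a median of 0.397 over all tested genes. Of the other members, 1 (*H2afv*) was among the 100 nearest genes. With 5 libraries this likeness is a description.

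Most other genes of the histone clusters had few counts. Of 67 such genes, 16 had 0 counts in every library, 26 (these included) had at most 3 counts in any library, and 9 reached the filter. Their counts summed to 129 to 133 CPM in control pools and to 121 and 101 CPM in exposed pools. In each library this was less than the CPM of *Hist2h2be* alone, which is not a comparison per length. The *Hist2h2be* transcript has 2620 bases, and transcripts of other cluster genes are mostly shorter after the stop codon. None of the 9 was called by edgeR (1 had an unadjusted p under 0.05) or by DESeq2, and 7 had a negative log2 fold change, or 8 with spike-in scaling, with a median of -0.13. The most abundant in CPM were the H2A genes *Hist3h2a*, *Hist1h2ac* and *Hist1h2al*. Per length they had means of 47.1, 34.6 and 180 TPM in control pools, the last of them close to that of *H1f0*. *Hist3h2a* was counted 1262, 1261 and 1564 times in control pools against 834 and 609 times in exposed pools, a log2 fold change of -0.79 (SE 0.31, 95% interval -1.53 to -0.05) that missed the threshold for a call with an adjusted p of 0.234 in edgeR. *Hist1h2ac* and *Hist1h2al* had log2 fold changes of -0.05 (SE 0.43) and -0.39 (SE 0.40). The canonical genes whose mRNAs lack a poly(A) tail are not primed in such libraries, so these counts are no measure of canonical histone mRNA. Of 13 other variant genes, *Hist3h2a* among them, 4 were tested and 0 called by edgeR (1 with an unadjusted p under 0.05) or DESeq2, and the macroH2A2 gene *H2afy2* had a log2 fold change of -0.28 (SE 0.21).

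Genes that handle histones were examined in 5 lists, of 8, 17, 15, 12 and 15 tested genes. In these, edgeR called 2 genes higher and 0 lower, beside 3.42% and 1.85% of all tested genes. These calls thus do not set the lists apart from other genes. Of 8 tested genes of the H3.3 deposition pathway, which includes the HIRA and DAXX-ATRX complexes, *Asf1b* was called, and the DESeq2 Wald test also called *Cabin1* higher (log2 fold change 0.78 in edgeR). *Asf1b*, a histone chaperone, was counted 77, 83 and 71 times in control pools against 230 and 399 times in exposed pools, a log2 fold change of 2.16 (SE 0.54, adjusted p = 0.0989 in edgeR), at low abundance. Of 17 tested genes of the complexes that insert or remove H2A.Z, 15 had a positive log2 fold change, or 13 with spike-in scaling, with a median of 0.39, beside positive values for 47.9% of all tested genes, or 32.6% with spike-in scaling. *Epc1*, a subunit of the NuA4/TIP60 complex, was called, with counts of 857, 1500 and 934 (control) against 2237 and 2754 (exposed) (log2 fold change 1.33, SE 0.30, adjusted p = 0.0746 in edgeR). Both calls lie close to the threshold of 0.1, and that of *Asf1b* was lost in 13 of 17 alternative analyses and that of *Epc1* in 11 of 17. Of the general histone chaperones (15 tested genes, median 0.08), the regulators of linker histones and H2A.X (12 tested genes, median -0.28) and the factors that process the 3′ end of histone mRNA (15 tested genes, median 0.07), none was called by edgeR, with 3, 2 and 3 genes at an unadjusted p under 0.05, respectively. In edgeR, 19.1% of all tested genes had an unadjusted p under 0.05. The DESeq2 Wald test called 2 genes each of the general chaperones, the regulators and the 3′ end factors. These were *Chaf1b* and *Spty2d1*, *Eya3* and *Hmgn1*, and *Casp8ap2* and *Upf1*, the last of them lower. Among all 10062 tested genes the Wald test called 725 higher and 768 lower.

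**Figure D5:**
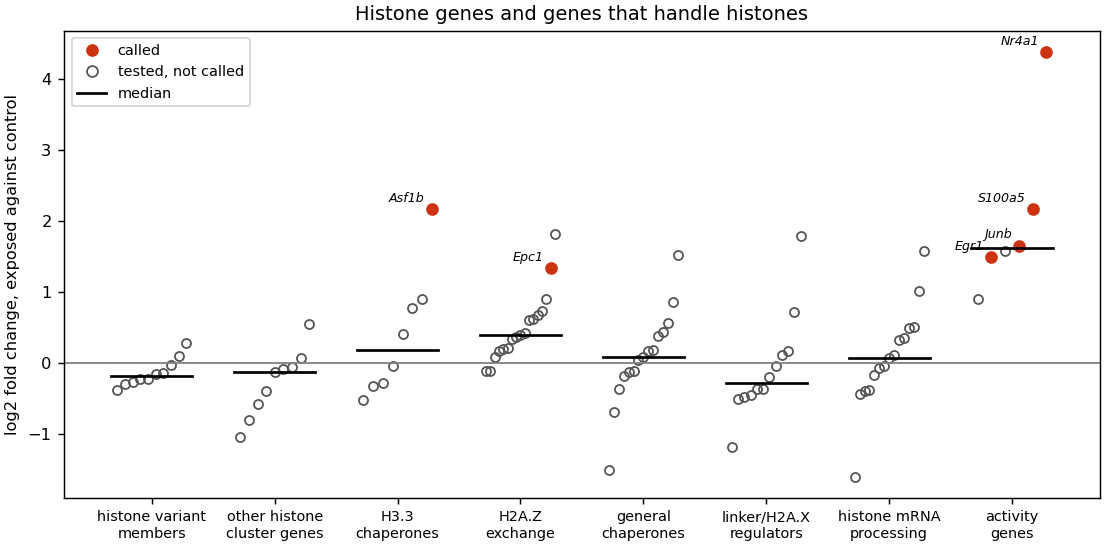
Log2 fold change, exposed against control, of every tested gene of each list. Filled points were called by edgeR, open points were not, and bars are medians. None of the 10 histone genes and 4 of 6 activity genes were called, beside 3.42% of all tested genes called higher and 1.85% called lower.

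Some markers of mature and immature OSNs were called between conditions, beside 1.85% of all tested genes called lower and 3.42% called higher. Of 11 markers of mature OSNs, 4 were called lower, *Rtp1* (log2 fold change -1.07), *Cngb1* (-0.91), *Cnga2* (-0.83) and *Cnga4* (-0.53), which encode a receptor chaperone and the subunits of the transduction channel. These calls were lost in 3 (*Rtp1*), 7 (*Cngb1*), 5 (*Cnga2*) and 13 (*Cnga4*) of 17 alternative analyses. Of 6 markers of immature OSNs, the growth-cone gene *Gap43* was called higher (0.94), a call lost in 12 of 17. Of the others, *Lhx2*, which encodes a transcription factor, had a log2 fold change of -2.22 and *Dpysl3* one of 1.31, which edgeR did not call and the DESeq2 Wald test called lower and higher, respectively. With spike-in scaling, edgeR called none of the 11 and none of the 6 markers. Whether the calls reflect a change in maturity was not tested. The part of these differences in the levels of the histone genes was not tested.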

How the data were processed

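GFP-positive neurons were sorted in pools of 4 mice, cDNA was made with the SMARTer Ultra Low kit (12 PCR cycles), and Nextera XT libraries were sequenced (50-base single reads). For mapping, the authors used STAR 2.7.0a on GRCm38, and they deposited raw counts per gene from featureCounts 1.6.3 (Ensembl release 99, exons, without strand, without multi-mapping reads), together with the exon length in bases. These deposited counts are neither filtered nor normalized. Reads shared by near-identical genes were thus lost.

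Genes were named through GENCODE M21 (55144 of 55411), and the 10 members were found by their Ensembl identifiers. The members and the gene lists were chosen with earlier results of these data known. Groups follow the sample labels.

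Conditions were compared by the quasi-likelihood test of edgeR 4.0.16 in R 4.3.3 (TMM normalization, robust glmQLFit) on all 5 libraries, with condition as the only factor and p-values adjusted by Benjamini-Hochberg over all 10062 genes tested. A gene was tested when all libraries of a condition had 139 counts or more, the value at which the density of log2 counts has its local minimum. Python 3.11.15 (pandas 2.3.3) served for shares, TPM and transcript searches.

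The genes named are the 10 members, every called gene of the other lists (at most 4 per list), the 3 histone cluster genes of highest mean CPM, and the 5 genes nearest to *Hist2h2be*. *Fos*, *Fosb*, *Mki67*, the myeloid markers, the genes that DESeq2 called and edgeR did not, *H2afy2* and *H3f3aos* were named after their values were seen. Alternatives were the size factors, Wald test and apeglm 1.24.0 shrinkage of DESeq2 1.42.0, spike-in scaling, a test against the fold threshold (glmTreat), no robust estimation, a stricter adjusted p, 3 other filters, pool number as a block, and omission of single libraries. Leaving out both libraries rich in myeloid markers, and the other scales for *Hist2h2be*, were chosen after seeing the data.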

Additional observations from a re-analysis of the deposited data

How the results depend on the processing

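None of the 10 members was called under any of 17 alternatives. The log2 fold change of *Hist2h2be* stayed negative in all of them, between -0.51 and -0.21, with adjusted p-values of 0.337 to 1.00 (edgeR or DESeq2). With 1 library left out it lay between -0.43 and -0.21. *Hist1h2bc*, *H1f0*, *H2afy* and *H2afv* stayed negative and *H3f3b* positive in all 17. Not all of the 17 were free to differ. The test against the fold threshold, no robust estimation and the stricter adjusted p repeated the main fold changes, so the signs stayed the same there. The test against the fold threshold and the stricter adjusted p also could not add a call. Estimates near 0 changed sign. *H2afx* was -0.052 with spike-in scaling and ranged from -0.0018 (without control pool 2) to 0.28 with libraries left out. In the same way *Hist1h1c* ranged from -0.48 to 0.093 (without exposed pool 3), *H2afz* from -0.50 to 0.094 and *H3f3a* from -0.31 to 0.17 (both positive without control pool 1 or exposed pool 3), and *Hist1h2ac* from -0.75 to 0.26 (positive without control pool 2 or exposed pool 3), being 0.24 with the replicate block. For *Hist2h2be*, 70.4% of the control level per spike-in count compares with 81.6% in TMM-scaled CPM. The lowest value, -0.51, came with spike-in scaling, which moved the median of all genes to -0.23.

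Counts of called genes depended strongly on the setting, and the cause was not tested. For genes called higher (344) and lower (186), respectively, spike-in scaling gave 94 and 49, DESeq2's Wald test 725 and 768, apeglm 671 and 714, glmTreat 147 and 55, an adjusted p under 0.05 190 and 90, edgeR's own filter 162 and 74, and the replicate block 11 and 0. With 1 library left out they ranged from 93 to 349 and from 19 to 430, the lowest both without exposed pool 1. They were 155 and 62 without control pool 2, 108 and 77 without exposed pool 3, and 430 genes were called lower without control pool 3. Without control pool 1 and exposed pool 1 together they were 174 and 54. Pool numbers 1 and 3 occur in both conditions. Deviations from the condition means correlated at 0.0461 and -0.08, respectively, between pools of the same number. With 2 exposed pools, the deviations of one mirror those of the other. The correlations therefore cannot decide whether pools of the same number were handled together, and the labels do not say what a number marks. With the block, *Hist2h2be* had a log2 fold change of -0.38 (adjusted p = 0.372, edgeR).

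With 2 exposed pools, the 95% intervals of the members' log2 fold changes reached from -0.66 to 0.08 for *Hist2h2be*, the narrowest, and from -1.13 to 0.83 for *H2afz*, the widest.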
